A study of Oryza sativa with 8 samples.

Results

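The genes described here serve the uptake of iron and manganese in rice: the nicotianamine synthases NAS1, NAS2 and NAS3, the iron transporters IRT1 and IRT2, the manganese transporter NRAMP5, and the ferric reductase-like gene FRO1, which the annotation lists as 0sFRO1. They were chosen by name, as all probe sets annotated to these symbols or to a synonym with the Os prefix removed. Each gene had 1 probe set, so 7 of the 57194 probe sets on the array were taken, for 7 of the 17905 genes that the annotation names. Of these 7 probe sets, 5 passed the filter on low values and were tested, and those of NAS1 and IRT2 did not.

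Total RNA from shoots and leaves of rice seedlings (Oryza sativa, cultivar Zhonghua 11) at the 4-leaf stage was hybridised to 8 one-colour Affymetrix arrays, 2 in each of 4 groups. OE cold and OE normal were OsTMF overexpression lines in that cultivar, where the first array of each group was line OE-24 and the second line OE-29. ZH11 cold and ZH11 normal were the wild type, with 2 biological replicates each. The cold groups had spent 24 h in a growth chamber at a constant 4 °C, and the normal groups were taken before the move, so neither a further day of age nor the new surroundings can be told apart from the temperature. The labels do not name the promoter that drives OsTMF, and OsTMF itself was not matched to a probe set, so its overexpression was not checked here. The tissue holds many cell types, and fewer cells of a type and less RNA per cell cannot be told apart.

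Grasses take up iron in a way of their own. Nicotianamine synthases join molecules of S-adenosylmethionine into nicotianamine, which chelates iron, zinc and other metals inside the plant and is the precursor of the mugineic acids, the chelators that grass roots release to capture ferric iron. Rice also keeps IRT transporters, which take up ferrous iron directly as non-grass plants do, and it lives in flooded soil, where ferrous iron and manganese are plentiful. Most of what is known of these genes concerns roots, whereas the RNA measured here came from shoots.

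Leaf and root markers were read first. The summed signal of 5 leaf genes, among them small subunits of Rubisco and chlorophyll-binding proteins, was 20497.2 to 20537.4 in OE cold, 47150.3 to 50070.0 in OE normal, 19653.2 to 20620.7 in ZH11 cold and 49672.0 to 49787.0 in ZH11 normal. Of 7 root marker genes with a probe set, 4 were tested, and the summed signal of the 7 was 460.2 to 495.8 in OE cold, 282.2 to 373.2 in OE normal, 436.5 to 437.3 in ZH11 cold and 268.3 to 289.6 in ZH11 normal. The root genes LSI2, NRT2.2 and PT11 did not pass the filter. Within the lists the genes differed. The 3 tested probe sets of RBCS, the small subunit of Rubisco, were not called in the cold in either genotype, while limma called CAB2R, RCABP69, PORB and PORA lower in both. Of the root genes, SCR1 averaged 115.7 in OE cold and 40.6 in OE normal, and 157.6 in ZH11 cold and 36.8 in ZH11 normal, and was called in both genotypes. LSI1 was called higher in OE and QHB in ZH11, and SHR1 in neither. The part of these markers in the values below was not tested. The medians of the 8 arrays ran from 27.2 to 28.2.

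After 24 h at 4 °C, all 5 tested genes differed from the normal groups in both genotypes. NAS2 and FRO1 were higher in the cold, and NAS3, IRT1 and NRAMP5 were lower. Most of the tested probe sets were called as well: limma with Benjamini-Hochberg adjustment called 54.6% of the 34316 tested probe sets in OE and 60.2% in ZH11 (adjusted p under 0.05). In OE 22.9% were called higher and 31.8% lower, and in ZH11 26.3% were called higher and 33.9% lower. A call on these genes is therefore common on these arrays, and the sizes of the changes are given beside those of all tested probe sets. How often the arrays of 2 groups fail to overlap over all tested probe sets was not counted, here or in later comparisons.

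NAS2, which makes nicotianamine, had signals of 113.6 in OE-24 and 96.2 in OE-29 in the cold, against 23.1 in OE-24 and 19.0 in OE-29 under normal conditions. The cold signals were 74.8 and 82.1 in ZH11, against 27.6 and 24.0 in ZH11 normal. Every cold array was above every normal array, in both genotypes. The mean signal was 4.98 times as high in OE cold as in OE normal, a change of 1.70 ± 0.12 in log2(signal + 16) (SE; limma adjusted p = 6.25e-07). Of all tested probe sets, 3.05% had a larger increase in OE. In ZH11 the mean was 3.04 times as high in the cold, a change of 1.18 ± 0.12 (limma adjusted p = 8.58e-06), and 5.86% of tested probe sets increased more. The constant added before taking log2 sets the size of a change at such low signals: the log2 change of NAS2 in OE was 2.27 with 1 added and 0.99 with 64 added, and in ZH11 it was 1.57 and 0.67 with the same constants.

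NAS3, a synthase of the same product encoded on another chromosome (7, against 3 for NAS1 and NAS2), went the other way. Its cold signals were 81.5 in OE-24 and 188.1 in OE-29, against 434.5 in OE-24 and 675.5 in OE-29 under normal conditions. In ZH11 they were 170.2 and 128.3 in the cold, against 521.6 and 670.7 in ZH11 normal. The highest cold array lay below the lowest normal array. NAS3 fell by 1.98 ± 0.31 on the log2 scale in OE (SE; limma adjusted p = 0.000246), where the normal mean was 4.12 times the cold mean. The decrease in ZH11 had nearly that size: NAS3 fell by 1.89 ± 0.31 (limma adjusted p = 0.000316), and the normal mean was 3.99 times the cold mean. Among the tested probe sets 1.31% fell further in OE and 2.22% in ZH11.

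NAS3 was also the tested gene whose 2 arrays in a group lay farthest apart. OE-29 was above OE-24 in both treatments, by 2.31 times in the cold and by 1.55 times under normal conditions, while the 2 ZH11 arrays differed by no more than 1.33 times in either treatment. The difference between the lines was not tested.

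NAS1 is the synthase gene next to NAS2 on chromosome 3, with 0 protein-coding genes between them. Its signals were 6.2 and 7.4 in OE cold, 6.2 and 7.3 in OE normal, 5.3 and 6.1 in ZH11 cold, and 7.2 and 8.8 in ZH11 normal. All 8 lay below the filter, which corresponds to a signal of 17.45, so the probe set was not tested. The OE arrays of both treatments overlapped, and the ZH11 cold arrays lay below the ZH11 normal arrays. With no filter, limma called NAS1 lower in ZH11 cold, with a log2 change of -0.14 ± 0.05 (adjusted p = 0.0319). The ZH11 signals behind this call lay at percentiles 6.7 to 24.6 of their arrays, near the floor.

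**Figure D1:**
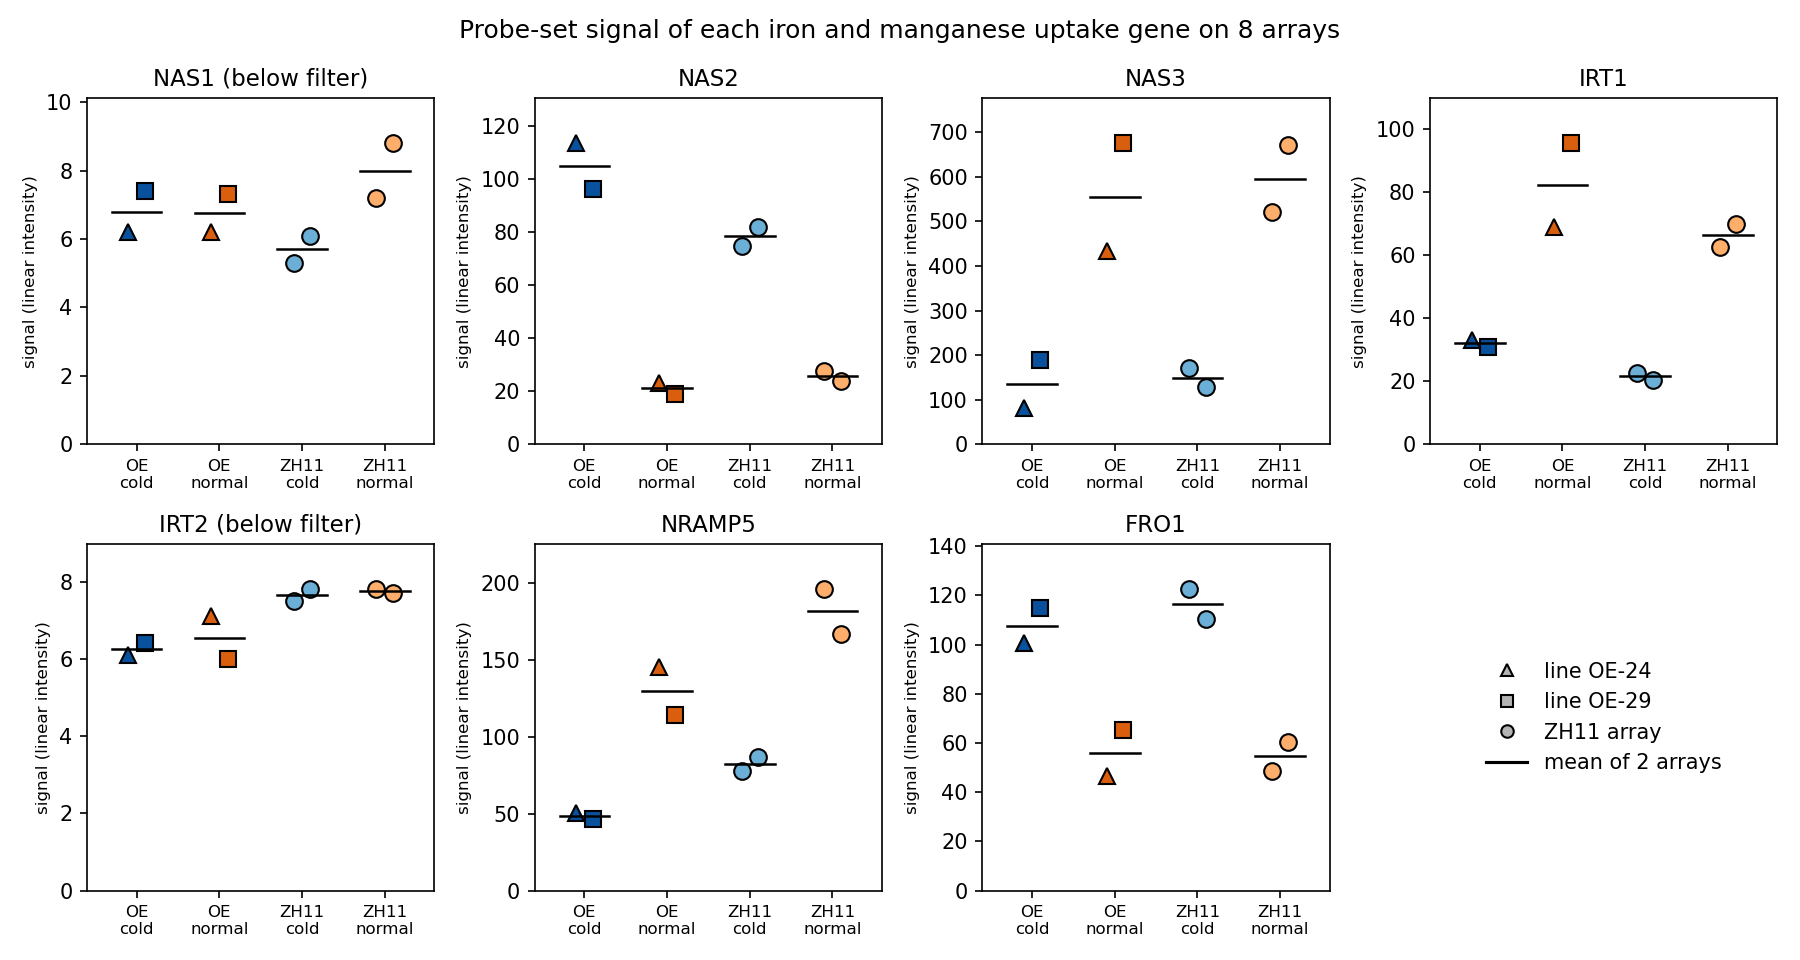
Signal on each of the 8 arrays (deposited units) for the 7 iron and manganese uptake genes. The groups are OE cold, OE normal, ZH11 cold and ZH11 normal. NAS2 and FRO1 have their cold arrays above all normal arrays, NAS3, IRT1 and NRAMP5 have them below, and NAS1 and IRT2 stay under 9 on every array.

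Of the transporters, IRT1 imports ferrous iron at the plasma membrane. Its signals were 33.2 in OE-24 and 30.8 in OE-29 in the cold, against 68.8 in OE-24 and 95.5 in OE-29 under normal conditions. In ZH11 they were 22.7 and 20.3 in the cold, against 62.7 and 69.9 in ZH11 normal. Cold and normal arrays did not overlap. IRT1 fell by 1.02 ± 0.13 on the log2 scale in OE (limma adjusted p = 7.71e-05), with a normal mean 2.57 times the cold mean. In ZH11 it fell by 1.13 ± 0.13 (limma adjusted p = 3.05e-05), with a normal mean 3.08 times the cold mean. Of all tested probe sets 8.91% fell further in OE and 8.87% in ZH11. The choice of constant mattered here too: IRT1 changed by -1.32 in OE and -1.58 in ZH11 with 1 added, and by -0.60 in OE and -0.61 in ZH11 with 64 added.

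IRT2, the second gene of this pair, lies near IRT1 on chromosome 3 with 1 protein-coding gene between them. It had signals of 6.1 and 6.4 in OE cold, 7.1 and 6.0 in OE normal, 7.5 and 7.8 in ZH11 cold, and 7.8 and 7.7 in ZH11 normal. It was below the filter on every array and was not tested, and with no filter limma called it in none of the 5 comparisons.

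NRAMP5, the main importer of manganese in rice roots and also a route of cadmium entry, was lower in the cold. Its cold signals were 50.6 in OE-24 and 46.6 in OE-29, against 145.4 in OE-24 and 114.4 in OE-29 under normal conditions. In ZH11 they were 78.0 and 87.1 in the cold, against 196.0 and 167.3 in ZH11 normal. The 4 groups did not overlap: OE cold was lowest, ZH11 cold above it, OE normal above that and ZH11 normal highest. NRAMP5 fell by 1.17 ± 0.13 on the log2 scale in OE (limma adjusted p = 2.89e-05), with a normal mean 2.67 times the cold mean. In ZH11 it fell by 1.0 ± 0.13 (limma adjusted p = 8.14e-05), with a normal mean 2.2 times the cold mean. Of all tested probe sets 6.78% fell further in OE and 11.1% in ZH11.

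FRO1 belongs to the family of membrane reductases that in Arabidopsis turn ferric into ferrous iron. Its cold signals were 100.5 in OE-24 and 114.9 in OE-29, against 46.4 in OE-24 and 65.4 in OE-29 under normal conditions. In ZH11 they were 122.4 and 110.4 in the cold, against 48.7 and 60.4 in ZH11 normal. The cold arrays of both genotypes lay above all normal arrays. FRO1 rose by 0.79 ± 0.15 on the log2 scale in OE, 1.93 times by the ratio of means (limma adjusted p = 0.00102), and 9.20% of tested probe sets increased more. With 64 added before log2 this increase was 0.52. In ZH11 it rose by 0.91 ± 0.15, 2.13 times by the ratio of means (limma adjusted p = 0.000354), and 7.99% increased more.

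**Figure D2:**
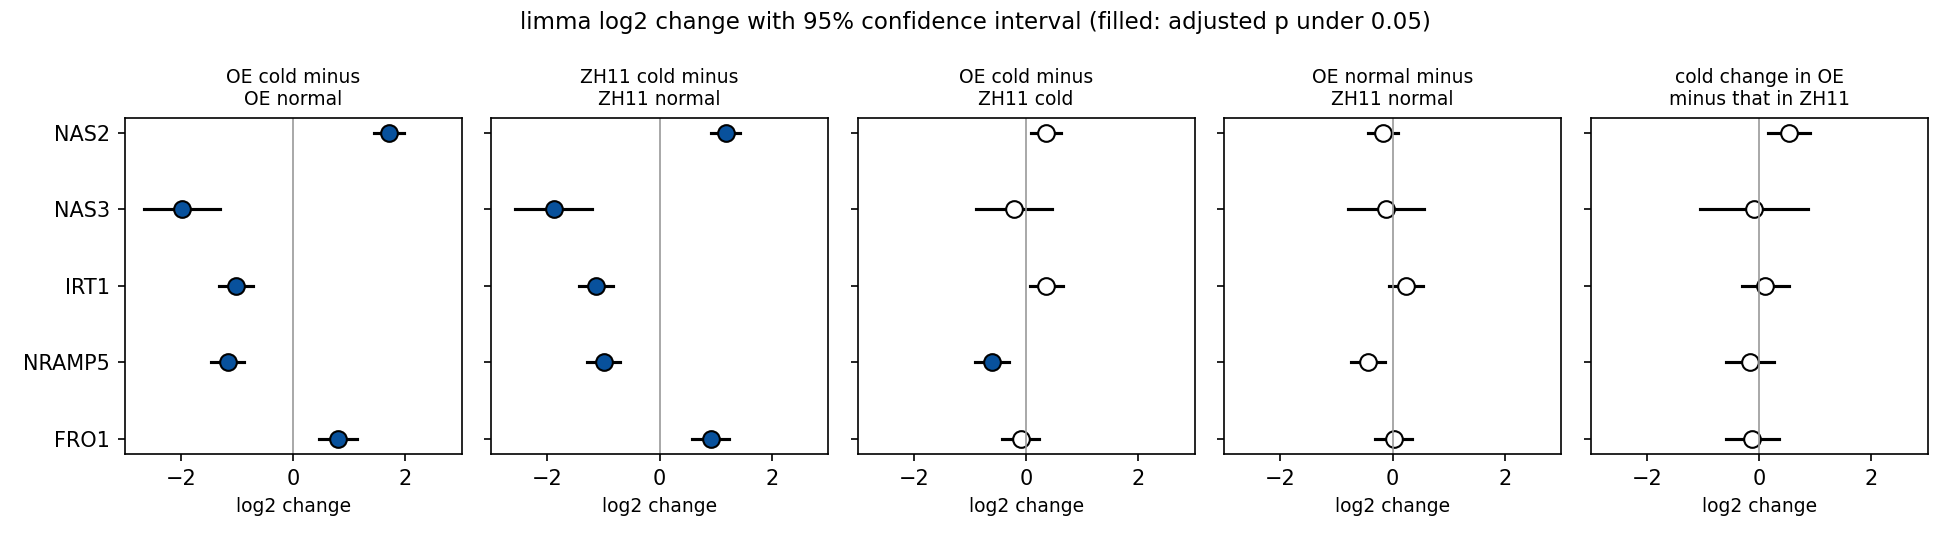
Log2 changes with 95% confidence intervals from limma for the 5 tested genes, in the cold in OE, in the cold in ZH11, in OE against ZH11 after and before cold, and for the interaction. The cold intervals of NAS2 and FRO1 lie above 0 and those of NAS3, IRT1 and NRAMP5 below it, and in OE against ZH11 the interval of NRAMP5 lies below 0 before and after cold, with a call after cold. The intervals of NAS2 and IRT1 after cold and of NAS2 for the interaction lie above 0 without a call after adjustment.

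**Figure D3:**
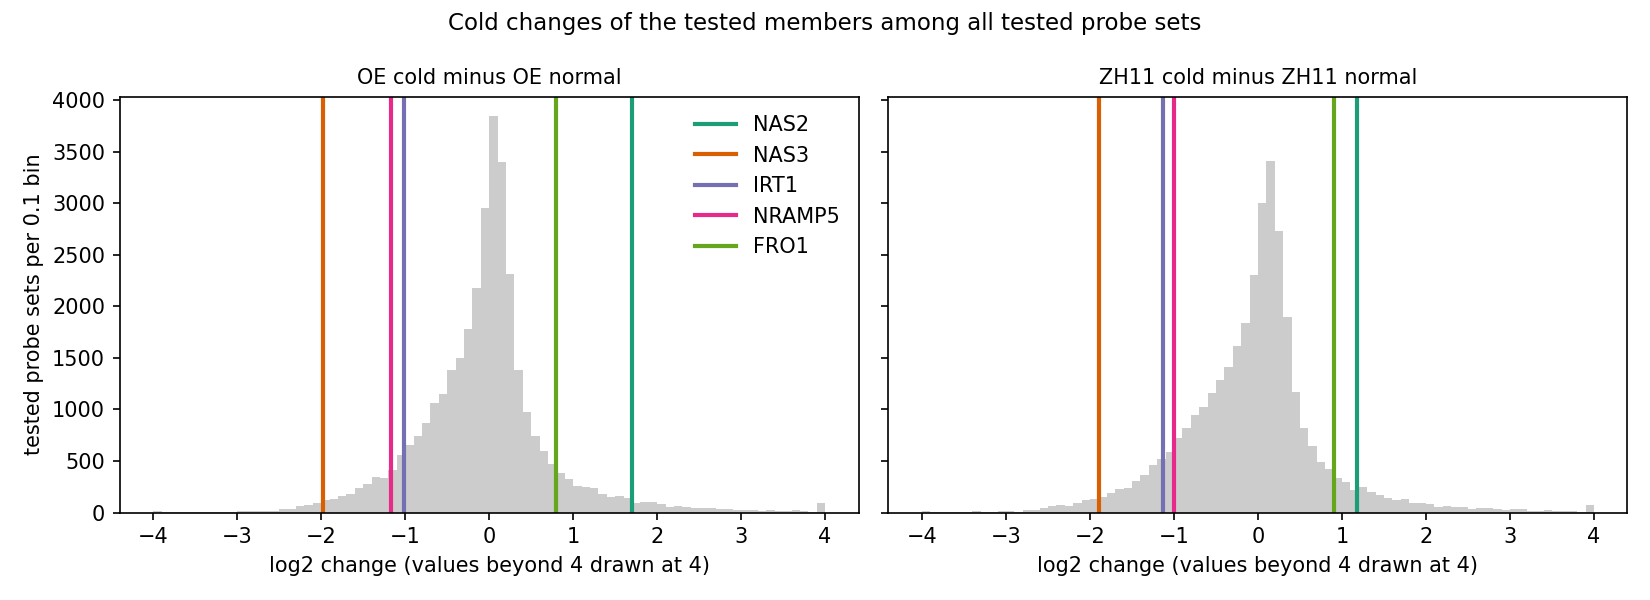
Distribution of the log2 change in the cold over all tested probe sets, with the 5 tested iron and manganese uptake genes marked. NAS3 is farthest out on the lower side and NAS2 on the higher side.

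The OE lines and ZH11 were also compared with each other, first before the move to the cold. None of the 5 tested genes was called by limma, where 1.19% of all tested probe sets were called. The share of all tested probe sets with an unadjusted limma p under 0.05 was not computed, and 1 of the 5 genes had one. That gene was NRAMP5, whose mean was 129.9 in OE normal and 181.6 in ZH11 normal, a log2 difference of -0.44 ± 0.13 (SE; unadjusted p = 0.00803, limma adjusted p = 0.231). Its OE and ZH11 arrays did not overlap, a separation whose share over all tested probe sets was not counted. The NAS2 arrays did not overlap either, with means of 21.0 in OE normal and 25.8 in ZH11 normal (log2 difference -0.17 ± 0.12, 95% interval -0.44 to 0.09, limma adjusted p = 0.790). IRT1 differed by 0.24 ± 0.13 (95% interval -0.06 to 0.54), NAS3 by -0.12 ± 0.31 (-0.80 to 0.56) and FRO1 by 0.02 ± 0.15 (-0.31 to 0.35), each with overlapping arrays.

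After 24 h in the cold, 1 of the 5 was called between the genotypes. NRAMP5 was lower in OE, with a mean of 48.6 in OE cold and 82.6 in ZH11 cold, a log2 difference of -0.61 ± 0.13 (95% interval -0.91 to -0.31; limma adjusted p = 0.0169). Of all tested probe sets 13.1% were called in this comparison, 8.13% as higher and 4.95% as lower in OE, and 1.85% were lower by more than NRAMP5. The call needs all 4 cold arrays: the adjusted p in limma was 0.0574 without OE-24, 0.0853 without OE-29, 0.0747 without the first ZH11 array and 0.122 without the second, with log2 differences between -0.68 and -0.54. With 64 added before log2 the difference was -0.38 and was still called.

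NAS2 and IRT1 were higher in OE cold without passing the test. The mean of NAS2 was 104.9 in OE cold and 78.4 in ZH11 cold, a ratio of 1.34 and a log2 difference of 0.35 ± 0.12 (95% interval 0.09 to 0.62; limma adjusted p = 0.0756). IRT1 had a mean of 32.0 in OE cold and 21.5 in ZH11 cold, a ratio of 1.49 and a log2 difference of 0.36 ± 0.13 (95% interval 0.06 to 0.65; limma adjusted p = 0.108). The arrays of the 2 genotypes did not overlap for either gene, and the share of all tested probe sets without overlap was not counted. NAS3 differed by -0.22 ± 0.31 (95% interval -0.90 to 0.46) and FRO1 by -0.10 ± 0.15 (-0.43 to 0.23), both with overlapping arrays. Some settings called NAS2 or IRT1: the adjusted p in limma was 0.0462 for NAS2 with 64 added before log2, and for IRT1 it was 0.0366 without OE-24 normal, 0.0358 without OE-29 normal and 0.0430 when only the 2 cold groups were fitted.

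Whether the cold change itself differed between the genotypes was tested as an interaction term, in which the change in ZH11 is subtracted from the change in OE. None of the 5 was called by limma, where 1.14% of all tested probe sets were. The share of all tested probe sets with an unadjusted limma p under 0.05 was not computed, and 1 of the 5 had one. NAS2 had the cold change of 1.70 in OE and 1.18 in ZH11, a difference of 0.53 ± 0.17 (95% interval 0.16 to 0.90; unadjusted p = 0.00975, limma adjusted p = 0.185). For the others the intervals of the difference were -0.31 to 0.54 for IRT1, -0.59 to 0.26 for NRAMP5, -0.59 to 0.35 for FRO1 and -1.06 to 0.87 for NAS3. All 4 intervals include 0, and that of NAS3 is the widest.

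Ordered by group mean, the 5 tested genes fell into 2 patterns. NAS2 was highest in OE cold, followed by ZH11 cold, ZH11 normal and OE normal, and FRO1 was highest in ZH11 cold, followed by OE cold, OE normal and ZH11 normal. NAS3 and NRAMP5 shared the order ZH11 normal, OE normal, ZH11 cold and OE cold, while IRT1 had OE normal, ZH11 normal, OE cold and ZH11 cold. In each order both cold groups stood on one side and both normal groups on the other, with no overlap of arrays across that step. For NAS3, NRAMP5 and IRT1 that step also crosses genotypes and was not tested as such. How many of all tested probe sets separate cold from normal arrays in the same way was not counted. Within a treatment the 2 genotypes were neighbours that did not pass the test, with the exception of NRAMP5 in the cold.

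The named genes whose log2 signal followed each of these genes most closely over the 8 arrays were then listed, as a description. NAS2 was followed by the formin FH16, the xyloglucan xylosyltransferase XXT1 and the inositol phosphate kinase IPK2, with Pearson correlations of 0.995, 0.994 and 0.994. NAS3 was followed by the kinase CDKF-4 (0.991), the cellulose synthase CESA3 (0.987) and the kinase CIPK32 (0.987). The nearest to IRT1 were the kinase SAPK6 (0.995), GBP (0.994) and OBGM (0.993). NRAMP5 was nearest to the UDP-glucose dehydrogenases UGD5 (0.997) and UGD4 (0.993) and to BLE3 (0.992), and FRO1 to AS2 (0.994), DI19 (0.993) and PCF2 (0.992). All arrays share the same 2 treatments, and such values are common: of 2200 named genes, 241 exceeded 0.95 with NAS2, 78 with NAS3, 310 with IRT1, 45 with NRAMP5 and 209 with FRO1.

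The wider iron pathway was read from a list of 121 gene names, of which 40 matched a gene with a probe set. Of these genes 31 were tested, each through its brightest tested probe set. No gene was found for 60 of the names, among them DMAS1, TOM3, ENA1 and ENA2 of the mugineic acid list. FER1 and FER2, the only names listed for iron storage, were also among them, so the counts cover a part of the pathway. In OE cold against OE normal 7 of the 31 rose, 15 fell and 9 did not pass the test, with a median log2 change of -0.28, against -0.14 over all tested genes. In ZH11 cold against ZH11 normal 7 rose, 18 fell and 6 did not pass, with a median of -0.46, against -0.18 over all tested genes. The background is again high: of all tested genes, limma called 67.3% in OE (25.6% higher and 41.7% lower) and 70.9% in ZH11 (25.7% higher and 45.2% lower).

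Among 6 genes of mugineic acid synthesis and of the methionine cycle that supplies it, 2 rose and 3 fell in OE, and 2 rose and 4 fell in ZH11. NAAT1, the aminotransferase that acts on nicotianamine on the way to mugineic acids, had means of 358.6 in OE cold and 737.2 in OE normal, and of 377.6 in ZH11 cold and 878.5 in ZH11 normal. It fell by 1.01 ± 0.12 in OE (limma adjusted p = 2.83e-05) and fell by 1.17 in ZH11 (limma adjusted p = 7.5e-06). ARD4, an acireductone dioxygenase of the methionine cycle, fell by 1.80 ± 0.07 in OE and fell by 2.24 in ZH11. In contrast MTK1, a methylthioribose kinase of the same cycle, rose by 0.61 ± 0.07 in OE and by 0.64 in ZH11. SAMS2, an S-adenosylmethionine synthetase, rose by 0.57 ± 0.08 in OE and by 0.90 in ZH11.

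Of the YSL transporters, which carry metals bound to nicotianamine or mugineic acids, 8 of 15 genes with a probe set were tested. In OE 0 rose and 4 fell, and in ZH11 0 rose and 6 fell. YSL9 fell by 1.18 ± 0.15 in OE and fell by 1.36 in ZH11, and YSL16 fell by 0.58 ± 0.07 in OE and fell by 0.86 in ZH11. YSL15, the importer of iron bound to deoxymugineic acid in rice roots, was not called in either genotype, with means of 24.2 in OE cold and 21.6 in OE normal, and of 23.4 in ZH11 cold and 25.7 in ZH11 normal.

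The other ZIP transporters, relatives of IRT1 that carry mainly zinc, gave 1 higher and 3 lower of 5 tested in either genotype. ZIP4 had means of 50.9 in OE cold and 242.0 in OE normal, and of 40.7 in ZH11 cold and 239.8 in ZH11 normal. It fell by 1.95 ± 0.11 in OE (limma adjusted p = 1.49e-07) and fell by 2.17 in ZH11 (limma adjusted p = 5.74e-08). ZIP8 fell by 1.58 ± 0.17 in OE and fell by 0.94 ± 0.17 in ZH11, and ZIP5 fell by 1.38 ± 0.15 in OE and fell by 1.21 ± 0.15 in ZH11. ZIP7 rose by 0.94 ± 0.10 in OE and by 0.76 in ZH11.

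Of 5 other NRAMP transporters tested, 3 rose, 1 fell and 1 was not called in either genotype. Of all tested genes, 25.6% were called higher and 41.7% lower in OE, and 25.7% higher and 45.2% lower in ZH11. NRAMP2 rose by 0.50 ± 0.08 in OE and by 0.43 in ZH11, and NRAMP6 by 0.35 ± 0.12 in OE and by 0.47 in ZH11. NRAMP4 fell by 1.05 ± 0.08 in OE and fell by 1.08 in ZH11 on its brightest probe set. Other tested probe sets of NRAMP4 went either way, as given below. NRAMP1, which lies near NRAMP5 with 2 protein-coding genes between them, was not called. Its log2 changes were -0.63 ± 0.25 in OE (limma adjusted p = 0.0557) and -0.47 in ZH11 (limma adjusted p = 0.134). The OE cold and OE normal arrays of NRAMP1 overlapped. Its cold signals were 34.3 in OE-24 and 43.1 in OE-29, against 43.1 in OE-24 and 104.4 in OE-29 under normal conditions.

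Of 5 tested genes for other metal transporters, 0 rose and 3 fell in either genotype. VIT1, which moves iron and manganese into the vacuole, fell by 1.36 ± 0.11 in OE and fell by 1.81 in ZH11. The copper transporter COPT1 fell by 1.32 ± 0.09 in OE and fell by 1.89 in ZH11. Of the 2 regulators tested, IDEF1, a transcription factor of the iron deficiency response, rose by 1.19 ± 0.09 in OE and by 1.2 in ZH11. The other, bHLH063, whose record lists both IRO2 and IRO3 as names, fell by 1.32 ± 0.20 in OE and fell by 1.48 in ZH11.

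**Figure D4:**
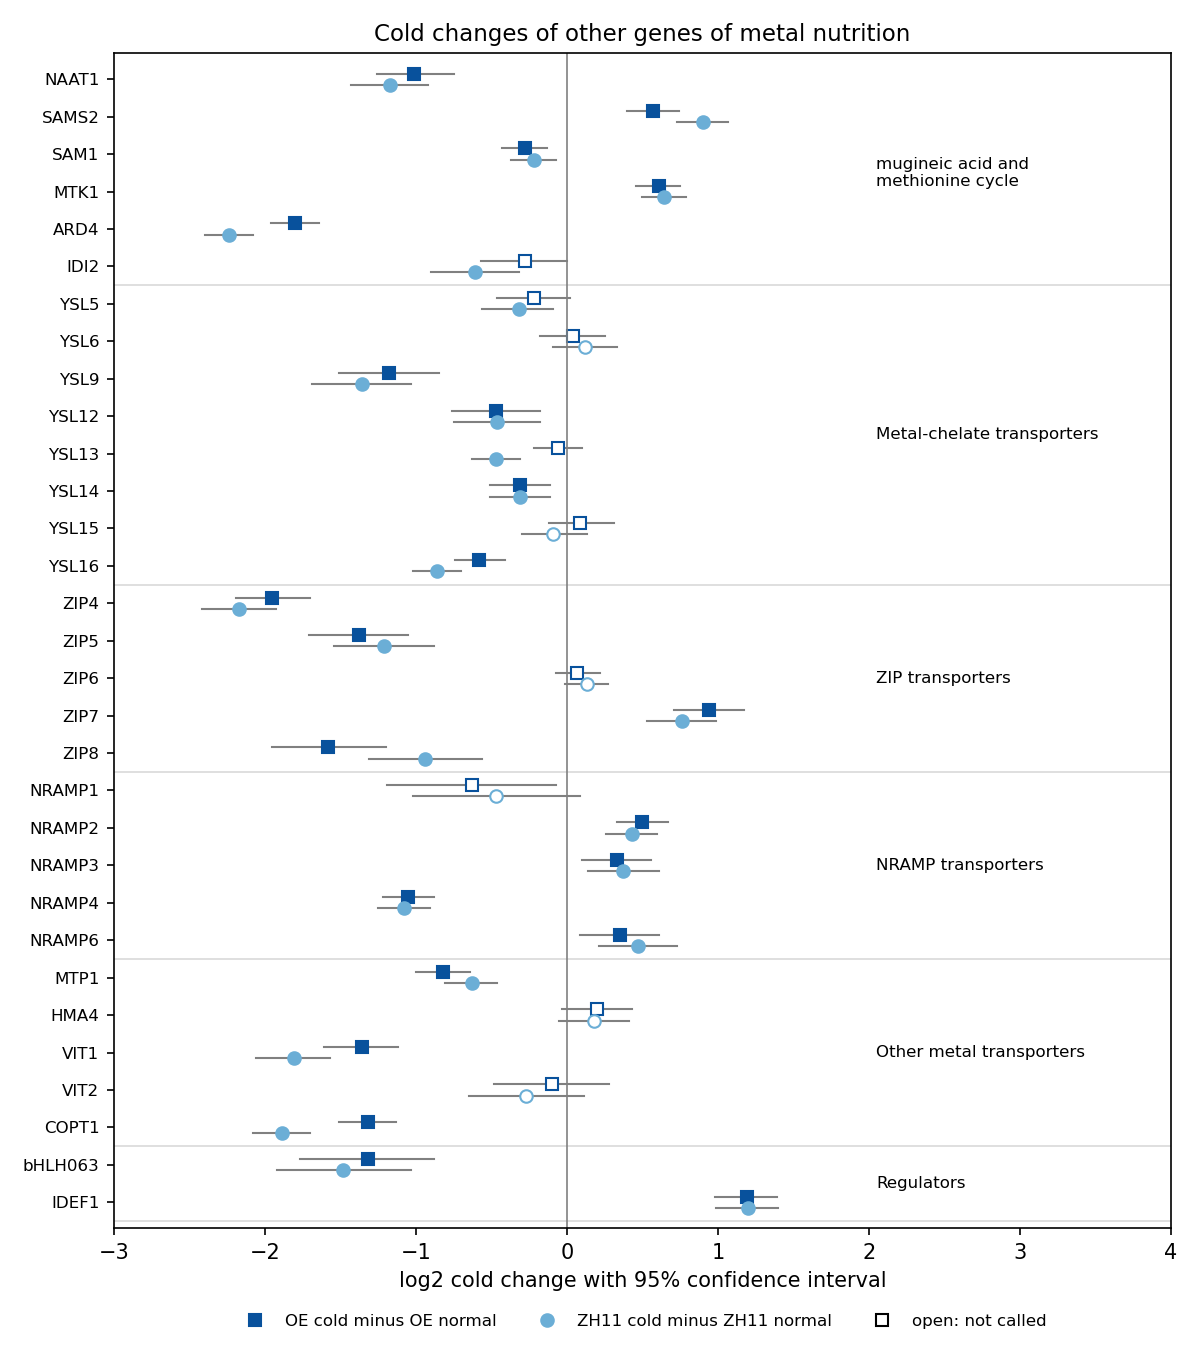
Log2 change in the cold of the tested genes of the wider iron pathway, in OE and in ZH11, grouped by role. The YSL genes that were called lie below 0, and NRAMP2, NRAMP3 and NRAMP6 lie above it, as do MTK1, SAMS2, ZIP7 and IDEF1.

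The pathway genes were also compared between the genotypes. Before cold 1 of the 31 was called, where limma called 1.5% of all tested genes, 0.953% as higher and 0.549% as lower: ZIP8 averaged 555.2 in OE normal and 294.4 in ZH11 normal, a log2 difference of 0.86 ± 0.17 (limma adjusted p = 0.0407). It lost the call without either ZH11 normal array, either ZH11 cold array or OE-29 normal, and 3 genes were called without OE-24 normal. After cold 5 of the 31 were called, 3 higher and 2 lower, where limma called 17.9% of all tested genes, 11.4% as higher and 6.53% as lower. YSL16 averaged 723.9 in OE cold and 538.3 in ZH11 cold, and VIT1 375.6 in OE cold and 251.8 in ZH11 cold, log2 differences of 0.42 ± 0.07 and 0.54 ± 0.11. ARD4 was 0.30 ± 0.07 higher in OE cold, and SAMS2 and the metal transporter MTP1 differed by -0.29 ± 0.08 and -0.28 ± 0.08. With 1 cold array left out, limma called YSL16 and VIT2 without OE-24, YSL16 and VIT1 without OE-29, none of the 31 without the first ZH11 array and YSL16 alone without the second.

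None of the 31 was called for the interaction in limma, where 1.55% of all tested genes were. An unadjusted limma p under 0.05 was found for 7, and the share of all tested genes at that level was not computed. With the overexpression line as a block, 2 genes were called. COPT1 had an interaction of 0.57 ± 0.11 (limma adjusted p = 0.0411) and ZIP8 of -0.64 ± 0.13 (limma adjusted p = 0.0413) in that fit.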

How the data were processed

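Total RNA of 8 seedling samples was measured on 1-colour Affymetrix rice arrays, in 4 groups of 2. What was deposited is 1 intensity per probe set and array, on a linear scale. How probes were summarised and arrays scaled is not given in the sources used here. Genes were named from the array annotation and from synonyms in a reference table of assembly ASM3414082v1. Signal shared between probe sets of near-identical genes is uncertain. The members and lists were chosen with earlier results of these data known.

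The analysis used log2(signal + 16) without rescaling. The 34316 probe sets with a mean log2 value over the 40th percentile were tested. Group means were fitted to all arrays with limma 3.58.1 (lmFit, eBayes with a trend; statmod 1.5.0, R 4.3.3), with 4 residual degrees of freedom. P-values are two-sided and adjusted by the Benjamini-Hochberg method over all tested probe sets, and a call is an adjusted p under 0.05. The procedure was also run on simulated data with changes in OE cold alone and no difference between lines, a simpler setting than these arrays. No result above rests on it. Precision is limited by the small number of arrays, and log2 changes of low signals are understated.

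All members are named. Of the pathway lists, the genes called with the 2 largest changes in each direction per sublist are named, and for likeness the 3 closest named genes. YSL15, NRAMP1, NRAMP3, VIT2 and IDI2 were named after their values were seen. Names that fit several genes or a record of unclear identity were left out.

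Per the labels, the OE replicate numbers are the same 2 lines in both treatments, so the OE samples are paired by line. Replicate differences correlated at 0.121 between treatments in OE and at -0.02 in ZH11, whose numbers pair nothing. Alternatives were the added constant (1 or 64), quantile normalization, median centring, no filter or the 60th percentile, no trend, the replicate block, only the groups compared, all probe sets of a gene, and each array left out.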

Additional observations from a re-analysis of the deposited data

How the results depend on the processing

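All 10 cold changes of NAS2, NAS3, IRT1, NRAMP5 and FRO1 kept their direction and call wherever they were tested. NAS2 and IRT1 fell below the 60th percentile filter, which left 3 genes called of 3 tested in OE and in ZH11. The number called in OE against ZH11 after cold, 1 in the report, was 2 with 64 added, 2 with only the cold groups fitted, and 0 to 2 with 1 array left out. Without trend 0 pathway genes were called before cold and 3 after cold, and with only the 2 groups fitted 0 before cold. With 1 array left out the pathway counts between genotypes were 0 to 3 before cold, 0 to 5 after cold and 0 to 1 for the interaction. Median centring gave 1 pathway gene for the interaction.

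With the replicate block, the pathway count for the interaction was 1 over all arrays and 2 within OE, against 0 in the report, and no call of an uptake gene changed. Directions that turned, all among differences not called, came from leaving out 1 array. With each array left out in turn, NAS3 in OE against ZH11 lay between -0.43 and 0.19 before cold and between -0.75 and 0.32 after cold, and FRO1 before cold between -0.17 and 0.21. The interaction lay between -0.63 and 0.44 for NAS3, between -0.31 and 0.07 for FRO1 and between -0.08 and 0.31 for IRT1. NAS3 was above 0 before cold without OE-24 normal or the second ZH11 normal array, and after cold without OE-24 cold. The cause was not tested. Over all probe sets, 408 were called before cold (151 to 846 with 1 array left out, 226 with only those groups) and 4487 after cold (1165 to 6322). The split of the 4487 into 2790 higher and 1697 lower was 2368 against 2072 with quantile normalization, and 3320 against 1408 with median centring. For the interaction 390 were called (70 to 478 with 1 array left out). With 2 arrays in a group, an array left out leaves a lone sample that is assumed to vary like the other groups.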

Other observations

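Probe sets annotated to 1 gene differed in direction for NRAMP4 and for IDI2, which was noticed after the values were seen. Of the 5 tested probe sets of NRAMP4, limma called 3 lower in the cold in both genotypes. Their log2 changes were -1.05, -1.48 and -1.0 in OE and, for the same probe sets, -1.08, -1.76 and -1.2 in ZH11. Another was higher in both, by 1.17 in OE and 0.81 in ZH11, and the last was higher by 0.31 in OE and, without passing the test, by 0.05 in ZH11. Which of them read NRAMP4 alone was not tested. IDI2, from the mugineic acid and methionine cycle list, was counted through a probe set that changed by -0.28 in OE, without a call. In ZH11 that probe set changed by -0.61 and was called. The other tested probe set of IDI2 changed by 0.13 in OE and 0.32 in ZH11, without a call in either. Each uptake gene had 1 probe set, so no such comparison was possible for them.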
